A study of Homo sapiens with 4 samples.

Results

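Kidney development rests on a small set of transcription regulators, and the promoters of 8 of them were examined here in HEK293T cells, a human embryonic kidney line that is aneuploid and carries the SV40 large T antigen. The set was PAX2, PAX8, LHX1, SIX2, EYA1, SALL1, WT1 and OSR1, chosen by gene symbol as regulators of the embryonic kidney. All 8 had a row in the promoter table, out of 28775 rows in all, and all 8 passed the filter on low counts that kept 27647 rows. ATAC-seq, which reads out where the Tn5 transposase can insert adapters into chromatin, was available for 2 libraries of wild-type (WT) HEK293T cells and 2 of MORC2 knockout (KO) HEK293T cells. MORC2 is a chromatin-compacting ATPase that acts with the silencing complex HUSH. The KO libraries came from bulk pools edited with Cas9 protein, sgRNA 1 in replicate 1 and sgRNA 2 in replicate 2, so that guide and replicate cannot be told apart. In bulk pools, a change in a share of the cells and a smaller change in all of them cannot be told apart either. The study's account of the editing names HEK293 cells where the sample labels give HEK293T. The WT libraries carried no guide according to the labels.

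In the embryo, OSR1 marks the intermediate mesoderm from which the kidney arises. PAX2 and PAX8, a pair of related paired-box factors, and LHX1, a LIM-homeodomain factor, then specify the nephric duct and the early nephron. In the metanephric mesenchyme, WT1 and SALL1, both zinc finger proteins, and EYA1, a coactivator that partners SIX2, act before and around SIX2, which keeps nephron progenitors undifferentiated. An open promoter permits transcription but does not measure it, so that the values here describe chromatin and not expression.

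The libraries held between 9435801 and 15152636 promoter fragments, of which mitochondrial rows took 20.6% in KO replicate 2 and from 31.8% to 35.1% in the others. KO replicate 2 was the deepest. Levels are CPM, fragments per 1000000 of the library size scaled by TMM, which sets the bulk of promoters equal between libraries. The study describes promoters as windows of a single width, so levels were compared between genes without division by length. DNA copy number, which differs between loci in an aneuploid line, was not analysed here and is part of every level. For the targeted gene MORC2, WT replicates 1 and 2 gave 247 and 267 promoter fragments (25.7 and 29.6 CPM), while 403 and 639 were counted for KO replicates 1 and 2 (37.0 and 37.5 CPM). Its log2 fold change was 0.43 (SE 0.087, adjusted p = 0.000279 by edgeR), which does not check the edit, since an edited gene keeps its promoter.

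The promoter sequences of those members for which RefSeq windows were given, 4 of the 8, are shown first, because the CpG content of a promoter bears on its accessibility. Each window runs from 250 bases before to 50 bases after an annotated start on GRCh38.p14, whereas the counts were made on the CHM13 assembly. CpG dinucleotides are in capitals. The SIX2 window lies at chr2:45009403-45009702 (minus strand) and the PAX8 window at chr2:113278872-113279171 (minus strand), and each is the only window given for its gene. The first of 4 WT1 windows lies at chr11:32435490-32435789 (minus strand). PAX2 has 2 windows, at chr10:100735146-100735445 and chr10:100745332-100745631 (plus strand).
SIX2: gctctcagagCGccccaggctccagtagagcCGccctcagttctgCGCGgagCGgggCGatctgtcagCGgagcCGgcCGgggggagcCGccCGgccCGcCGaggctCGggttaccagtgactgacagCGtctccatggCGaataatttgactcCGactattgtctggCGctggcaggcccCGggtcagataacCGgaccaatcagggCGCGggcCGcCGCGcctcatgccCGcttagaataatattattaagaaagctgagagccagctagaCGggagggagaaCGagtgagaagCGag
WT1 first window: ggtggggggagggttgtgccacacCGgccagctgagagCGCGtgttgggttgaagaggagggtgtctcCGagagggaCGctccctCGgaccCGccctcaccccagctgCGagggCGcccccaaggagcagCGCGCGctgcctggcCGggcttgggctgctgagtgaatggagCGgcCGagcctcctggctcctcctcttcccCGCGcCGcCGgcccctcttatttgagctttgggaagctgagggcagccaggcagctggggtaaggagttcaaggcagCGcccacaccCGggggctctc
PAX2 first window: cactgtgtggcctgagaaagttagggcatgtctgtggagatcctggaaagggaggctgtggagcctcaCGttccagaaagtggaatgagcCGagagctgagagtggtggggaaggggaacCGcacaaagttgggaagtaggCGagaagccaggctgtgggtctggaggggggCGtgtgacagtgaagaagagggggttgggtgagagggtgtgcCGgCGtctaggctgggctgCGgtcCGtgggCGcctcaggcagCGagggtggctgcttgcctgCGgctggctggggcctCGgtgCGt
PAX2 second window: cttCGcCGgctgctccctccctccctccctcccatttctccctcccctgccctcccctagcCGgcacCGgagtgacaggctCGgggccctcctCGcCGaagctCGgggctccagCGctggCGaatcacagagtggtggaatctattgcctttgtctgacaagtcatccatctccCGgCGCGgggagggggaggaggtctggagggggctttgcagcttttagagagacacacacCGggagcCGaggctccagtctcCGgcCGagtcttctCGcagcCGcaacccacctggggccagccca
PAX8: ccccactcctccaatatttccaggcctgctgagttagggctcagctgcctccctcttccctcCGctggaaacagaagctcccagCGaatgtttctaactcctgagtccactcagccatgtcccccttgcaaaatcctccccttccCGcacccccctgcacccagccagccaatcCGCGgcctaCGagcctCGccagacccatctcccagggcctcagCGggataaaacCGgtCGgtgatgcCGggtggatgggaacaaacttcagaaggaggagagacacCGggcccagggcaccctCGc
The SIX2 window held 29 CpG dinucleotides and the first WT1 window 21. The PAX2 windows held 14 and 19, and the PAX8 window 13. Over 35116 windows of this length the median was 14, and 75.8% held fewer than SIX2. SIX2 had an observed to expected CpG ratio of 0.949, against 0.483 in PAX8 and a median of 0.579 over all windows. The GC box (GGGCGG, either strand) occurred 2 times in the SIX2 window and 1 time in the first WT1 window, and was not in the PAX2 or PAX8 windows. It was present in 45.0% of all windows. The CCAAT box (CCAAT, either strand) occurred 1 time in SIX2 and 2 times in PAX8, and was present in 34.6% of all windows. None of these 5 windows held TATAAA on either strand, which was present in 11.5% of all windows. The promoter table gives a single row per gene and does not state which start its window was placed on. For PAX2 and WT1, which have several starts, it is therefore not known which of them the level of the row describes.

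Among the regulators of the metanephric mesenchyme, SIX2 and SALL1 had promoters well above the median promoter, WT1 lay above it by less and EYA1 well below it. The SIX2 promoter (Gene ID 10736, chromosome 2) held 792 and 751 fragments in WT replicates 1 and 2 and 970 and 1518 in KO replicates 1 and 2. Its level was 82.2 and 83.2 CPM in WT and 89.0 CPM in both KO libraries. In WT, 96.9% of tested promoters lay below it, and it stood at 4.94 times the median promoter of 16.7 CPM. SALL1 (Gene ID 6299, chromosome 16) held 531 and 563 fragments in WT replicates 1 and 2 and 602 and 973 in KO replicates 1 and 2. These correspond to 55.1 and 62.4 CPM in WT and 55.2 and 57.1 CPM in KO. Both KO libraries of SALL1 lay between the WT libraries, and 89.9% of tested promoters lay below it in WT.

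WT1 (Gene ID 7490, chromosome 11), the gene lost in some Wilms tumours, held 235 and 205 fragments in WT replicates 1 and 2 and 280 and 441 in KO replicates 1 and 2. Its level was 24.4 and 22.7 CPM in WT and 25.7 and 25.9 CPM in KO, so that KO exceeded WT in each pairing of libraries by a small margin. EYA1 (Gene ID 2138, chromosome 8) held 52 and 55 fragments in WT replicates 1 and 2 and 62 and 96 in KO replicates 1 and 2. Its level was 5.40 and 6.09 CPM in WT and 5.69 and 5.63 CPM in KO, both KO libraries lying between the WT libraries. In WT, 57.5% of tested promoters lay below WT1 and 33.1% below EYA1. The coactivator EYA1 and its partner SIX2 thus lay near opposite ends of the set.

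Of the factors of the intermediate mesoderm and nephric duct, LHX1 alone lay above the median promoter. LHX1 (Gene ID 3975, chromosome 17) held 172 and 184 fragments in WT replicates 1 and 2 and 204 and 345 in KO replicates 1 and 2, or 17.9 and 20.4 CPM in WT and 18.7 and 20.2 CPM in KO. OSR1 (Gene ID 130497, chromosome 2) held 79 and 78 fragments in WT replicates 1 and 2 and 86 and 158 in KO replicates 1 and 2, or 8.20 and 8.64 CPM in WT and 7.89 and 9.26 CPM in KO. The WT and KO libraries overlapped at both. OSR1 stood at 0.503 times the median promoter.

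Both paired-box genes had low promoter levels. PAX2 (Gene ID 5076, chromosome 10) held 76 and 58 fragments in WT replicates 1 and 2 and 67 and 100 in KO replicates 1 and 2. Its level was 7.89 and 6.42 CPM in WT and 6.14 and 5.86 CPM in KO, both KO libraries lying below both WT libraries. PAX8 (Gene ID 7849, chromosome 2) was the lowest of the set, with 50 and 40 fragments in WT replicates 1 and 2 and 51 and 70 in KO replicates 1 and 2. At 5.19 and 4.43 CPM in WT and 4.68 and 4.10 CPM in KO, its libraries overlapped. In WT, 37.5% of tested promoters lay below PAX2 and 28.7% below PAX8.

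**Figure D1:**
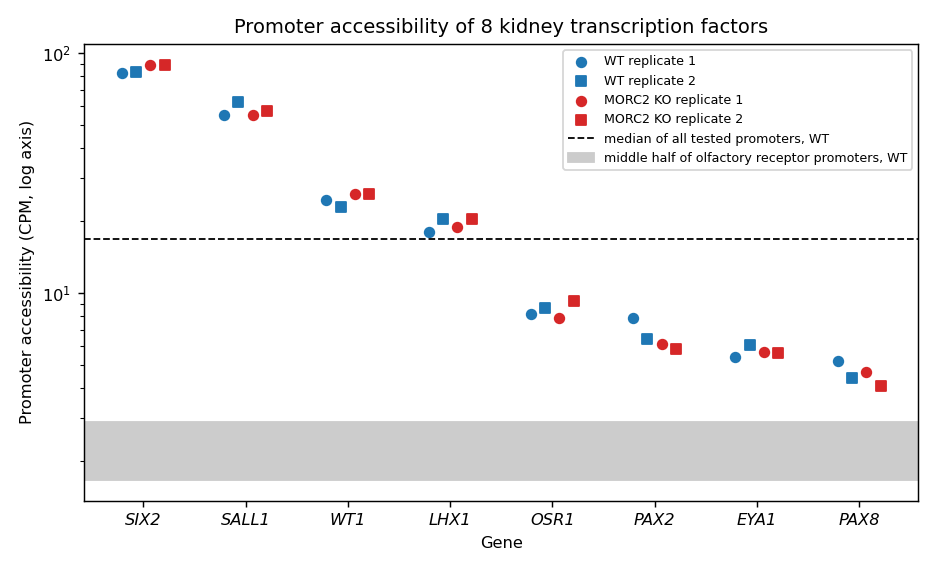
Promoter accessibility in CPM (log axis) of the 8 kidney factors, ordered by their mean in WT, with 1 point per library (WT blue, MORC2 KO red). SIX2, SALL1, WT1 and LHX1 lie above the median of all tested WT promoters (dashed line, 16.7 CPM) in every library, and OSR1, PAX2, EYA1 and PAX8 lie below it but above the interquartile range of olfactory receptor promoters (grey band, 1.66 to 2.89 CPM).

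The order of the levels was the same in all 4 libraries. From the highest it ran SIX2, SALL1, WT1, LHX1, OSR1, PAX2, EYA1 and PAX8, and SIX2 exceeded PAX8 by 17.2 times in WT and 20.3 times in KO. The means in WT were 82.7 ± 0.657 CPM for SIX2, 58.7 ± 5.10 CPM for SALL1, 23.6 ± 1.20 CPM for WT1 and 19.1 ± 1.78 CPM for LHX1 (SD, n = 2 each). They were 8.42 ± 0.307 CPM for OSR1, 7.16 ± 1.04 CPM for PAX2, 5.75 ± 0.489 CPM for EYA1 and 4.81 ± 0.539 CPM for PAX8 (SD, n = 2 each). Within WT, and within KO, the libraries of neighbours in this order did not overlap. The lower part of the order was nevertheless within counting error. An exact 95% binomial interval on the fragments of 2 neighbouring members placed OSR1 above PAX2 in 1 of 4 libraries, PAX2 above EYA1 in 1, and EYA1 above PAX8 in 0. It placed WT1 above LHX1 in 3 of 4, and the remaining neighbours apart in all 4. Such intervals cover counting error only. Over the 4 libraries together, OSR1 overlapped PAX2, and PAX2 overlapped EYA1. The counting error of a single library was 3.65% for SIX2 and 15.8% for PAX8 in WT replicate 2. These levels are a description of both groups. Apart from the counting intervals, on pairs taken from the observed order, no test was made between genes.

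Members below the median promoter lay above most olfactory receptor promoters, but close to marker genes of other tissues. Median WT levels of such marker lists were 5.33 CPM for blood, 5.85 CPM for liver, 6.40 CPM for adrenal cortex and 7.74 CPM for muscle. Olfactory receptor genes, used in sensory neurons of the nose, had a median of 2.21 CPM in WT over 391 tested promoters, 1 of which lay above the median of all promoters. Of these, 12 lay at or above PAX8, 8 at or above EYA1, 6 at or above PAX2 and 5 at or above OSR1. At the other end, 15 ubiquitously used genes had a median of 50.2 CPM, with GAPDH and TBP highest at 98.7 ± 1.19 and 94.8 ± 0.372 CPM (SD, n = 2 each). SIX2 and SALL1 lay above this median, while WT1 and LHX1 lay below it. For genes with a single RefSeq window, the median WT level was 3.34 CPM in the lowest and 37.2 CPM in the highest of 5 equal classes of CpG count, over 14834 genes, which are not independent replicates. SIX2 lay above the upper quartile of 53.1 CPM of its own class (24 to 33 CpG). PAX8 lay between the quartiles of its class (4 to 14 CpG), 3.80 and 15.9 CPM.

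The question of the comparison between groups was whether loss of MORC2 altered accessibility at these promoters. None of the 8 passed the test. In edgeR's quasi-likelihood test over all 27647 promoters, 0 of the 8 had an adjusted p under 0.05, where 4.45% of all tested promoters did. At an unadjusted p under 0.05 there were also 0, where 20.3% of all promoters had one. DESeq2 and limma-trend called 0 as well, with 0 at an unadjusted p under 0.05 in each. Over all promoters DESeq2 called only 7 and limma-trend 717, so that the 0 calls of DESeq2 say little about the members. All calls here are on counts of whole promoters. The study tested windows of the genome, summarised them per promoter and reported far fewer genes, so its number is not a like measure. The libraries of the groups did not overlap at 3 of the 8 (SIX2 and WT1 with KO above, PAX2 with KO below), where 50.6% of all promoters did not overlap.

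The widths of the intervals show how precisely each difference was estimated under TMM scaling. SIX2 had a log2 fold change (KO against WT) of 0.11, with a 95% interval from -0.020 to 0.23 and the smallest p of the set (adjusted p = 0.336). SALL1 had one of -0.060 (-0.20 to 0.076, adjusted p = 0.653). For these, the most accessible members, the intervals reached up to 1.17 times WT for SIX2 and down to 0.873 times WT for SALL1. They do not cover the choice of scaling. With total count scaling the log2 fold change of SIX2 was 0.24. WT1 had a log2 fold change of 0.13 (-0.062 to 0.32) and LHX1 one of 0.038 (-0.17 to 0.25). The less accessible members were measured less precisely. OSR1 had a log2 fold change of 0.047 (-0.27 to 0.37) and EYA1 one of -0.021 (-0.41 to 0.37). PAX2 had the largest difference of the set, -0.26 (-0.63 to 0.10, adjusted p = 0.424), and PAX8 had -0.15 (-0.58 to 0.27, adjusted p = 0.727). For PAX2 the interval runs from 0.647 to 1.07 times WT. The standard error was 0.064 for SIX2 and 0.22 for PAX8.

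Differences of all promoters followed abundance, and the members lay on both sides of the medians of their own abundance classes. With all tested promoters in 10 equal classes by mean level, the median log2 fold change was -0.27 in the lowest and 0.082 in the highest. It was -0.24 in the class of PAX8, -0.18 in that of PAX2 and EYA1, -0.033 in that of OSR1, 0.074 in that of SALL1 and 0.082 in that of SIX2. SALL1 (-0.060) and OSR1 (0.047) had the opposite sign to their class, and EYA1 (-0.021) lay closer to 0 than its class. After offsets that remove this trend, the difference of PAX2 was -0.12 and that of SIX2 0.022. SALL1 then had -0.13 with an unadjusted p of 0.0486 and an adjusted p of 0.379, and was the 1 member with an unadjusted p under 0.05 in that fit. The median log2 fold change over the 8 members was 0.0085, and over all tested promoters it was -0.017. Of the 8, 4 were above 0.

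**Figure D2:**
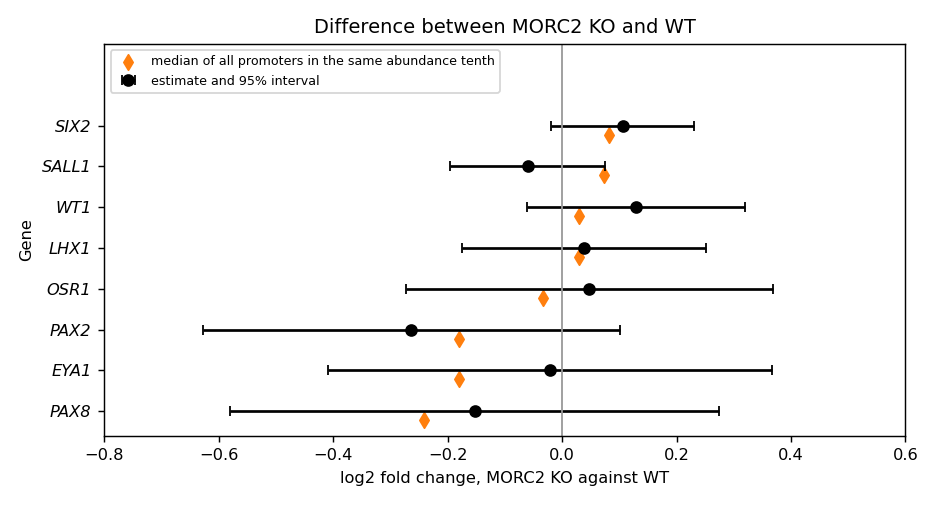
Log2 fold change of MORC2 KO against WT for the 8 kidney factors (black points, bars are 95% intervals from edgeR), with the median of all promoters in the same abundance class (orange). Every interval includes 0, and the intervals widen from SIX2 (-0.020 to 0.23) to PAX8 (-0.58 to 0.27).

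Rows that lie next to the members in gene order were compared, because neighbouring windows can share fragments. WT1 and WT1-AS, the antisense transcript that starts beside it, differed by at most 0.424% in any library. They are best read as 1 measurement, which the counts do not assign to either gene. PAX8-AS1 was as low as PAX8, at 4.82 ± 0.0837 CPM in WT (SD, n = 2), and their counts differed by up to 11.8%. LHX1-DT, the divergent transcript of LHX1, lay above its partner, at 24.2 ± 0.648 CPM in WT (SD, n = 2), or 1.27 times LHX1. MIR4757, the row after OSR1, had 28.8 ± 2.55 CPM in WT (SD, n = 2) and so 3.42 times the level of OSR1. In each of these pairs the row named after the member, or next to it, was not called either, with adjusted p from 0.380 (LHX1-DT) to 0.785 (PAX8-AS1) in edgeR.

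SIX2 and SALL1 stood out from the rows around them. SIX3, a paralogue of SIX2 that acts in forebrain and eye, is the row before SIX2 and held 52 and 54 fragments in WT replicates 1 and 2 and 37 and 65 in KO replicates 1 and 2. LINC01121, the row after it, held 52 and 39 in WT and 39 and 55 in KO. SIX3 had 5.69 ± 0.411 CPM in WT (SD, n = 2), 0.0688 times the level of SIX2, and LINC01121 had 0.0588 times. Beside SALL1, LINC02127 had 0.0531 times and HNRNPA1L3 0.0284 times its level. The rows beside PAX2 and EYA1 were all higher than the members. SLF2 had 6.15 times the level of PAX2 and HIF1AN 3.10 times. XKR9 and MSC had 6.28 and 4.06 times the level of EYA1. SIX3 had both KO libraries below both WT libraries, as did 25.4% of all promoters. It had a log2 fold change of -0.64 (95% interval -1.07 to -0.21), with an adjusted p of 0.0618 in edgeR. MSC, a basic helix-loop-helix repressor gene, had one of 0.29 with an adjusted p of 0.0543. Neither passed the test, although SIX3 was called in edgeR when promoters were filtered on a mean count of at least 50 (-0.67, adjusted p = 0.0419).

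**Figure D3:**
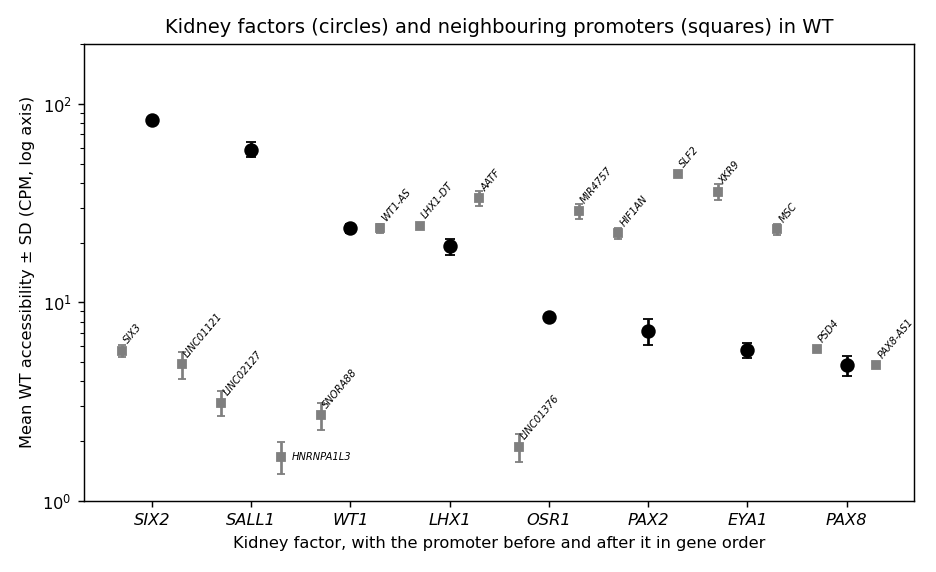
Mean WT accessibility in CPM (log axis) of each kidney factor (circle) and of the promoters before and after it in gene order (squares), with SD over 2 libraries. SIX2 and SALL1 lie far above both neighbours, PAX2 and EYA1 lie below both of theirs, and WT1 coincides with WT1-AS.

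By the likeness of its 4 library values, SIX2, the member with the smallest p, was closest to SPTLC2, ATP8B2 and MIB1. Their Euclidean distances to it over the log2 CPM of 4 libraries were 0.0246, 0.0271 and 0.0282. SPTLC2, for a subunit of serine palmitoyltransferase, had 81.2 and 82.7 CPM in WT and 89.5 and 88.3 CPM in KO. With 4 libraries and many promoters of this level, such closeness is a description only.

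The surroundings of the set were described by lists of other genes. Of 50 further regulators of kidney development, 28 lay above the median promoter in WT, and their median was 24.8 CPM. TBX18, a T-box factor of the ureteric mesenchyme, was highest at 94.5 ± 12.5 CPM, and POU3F3, a POU factor of the distal nephron, had 72.9 ± 0.589 CPM (SD, n = 2 each). MECOM and TFAP2B, regulators of distal segments, were lowest, at 2.47 ± 0.112 and 3.28 ± 0.377 CPM. Of 37 signals, receptors and other proteins of kidney induction, 26 lay above the median promoter, with FAT4 and FRAS1 highest and GREM1 and FREM1 lowest. Of 34 paralogues of the 8 members, 17 lay above the median promoter, the same share as among the members themselves, 4 of 8. EGR1 and SIX5 were the highest paralogues, at 144.2 ± 4.20 and 106.1 ± 6.65 CPM, and LMX1A and SALL2 the lowest (SD, n = 2 each). The lists overlap, with 11 symbols in more than 1 of them.

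Genes of differentiated cells were less often above the median promoter, without a test of that difference. Of 16 genes of the mature nephron, 2 lay above it, LRP2 (megalin, an endocytic receptor of the proximal tubule) at 32.7 ± 1.32 CPM and PODXL (podocalyxin of podocytes) at 23.3 ± 1.14 CPM (SD, n = 2 each). SLC12A1 and UMOD, genes of the thick ascending limb, were lowest, at 1.56 and 2.47 CPM. Markers of other cell types gave 2 of 10 for neural or sympathoadrenal genes (NEFL and INA, both neurofilament genes), 0 of 5 for the adrenal cortex and 1 of 5 for liver (APOA1). They gave 0 of 6 for blood and 0 of 4 for muscle. Median levels ran from 5.33 CPM for blood to 9.70 CPM for neural or sympathoadrenal genes, where SPI1 was the highest blood gene, MYOD1 the highest muscle gene and NR5A1 the highest adrenal gene. Set against the label of an embryonic kidney line, 4 of its 8 factors had promoters above the median, SIX2, SALL1, WT1 and LHX1. The promoters of PAX2, PAX8, EYA1 and OSR1 lay below it, from 4.81 CPM (PAX8) to 8.42 CPM (OSR1) in WT. These levels were close to the list medians of the other cell types.

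**Figure D4:**
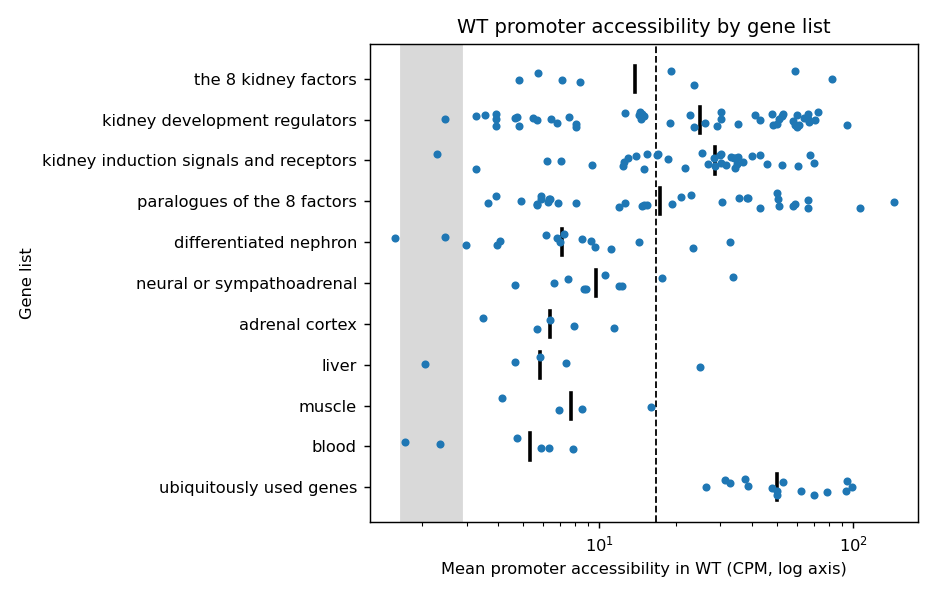
Mean WT promoter accessibility in CPM (log axis) for each gene (point) of the 8 kidney factors and of 10 other lists, with the list median as a black bar. The dashed line is the median of all tested promoters (16.7 CPM) and the grey band the interquartile range of olfactory receptor promoters (1.66 to 2.89 CPM); the 8 factors spread over both sides of the dashed line, while adrenal cortex, muscle and blood genes all lie to its left.

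In MORC2 KO, some genes of these lists were called, where 4.45% of all promoters were. Each call was lost without at least 2 of the libraries. Among the 50 kidney development regulators 1 was called higher (3.45% of all promoters) and 0 lower (0.995% of all) in edgeR. At an unadjusted p under 0.05 there were 16 of the 50, where 20.3% of all promoters had one. TBX18 rose from 103.3 and 85.6 CPM in WT to 108.0 and 113.8 CPM in KO, by 0.23 on the log2 scale (SE 0.063, edgeR adjusted p = 0.0134). WT replicate 1 lay close to KO replicate 1, and the difference was 0.11 without WT replicate 2 and 0.20 without KO replicate 2, with no call in either.

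Among kidney induction genes 3 of 37 were called higher (3.45% of all promoters) and 0 lower (0.995% of all), with 8 at an unadjusted p under 0.05 (20.3% of all). FAT4, a protocadherin that signals from stroma to nephron progenitors, rose by 0.27 on the log2 scale (SE 0.065, edgeR adjusted p = 0.0041). FRAS1, an extracellular matrix protein, rose by 0.24 and RET, the GDNF receptor of the ureteric bud, by 0.28 (edgeR adjusted p = 0.0139 and 0.0352). At each of the 3, KO exceeded WT in every pairing of libraries, as it did at 25.2% of all promoters. Without KO replicate 2 the differences were 0.32, 0.24 and 0.31 for FAT4, FRAS1 and RET, and without WT replicate 2 they were 0.21, 0.091 and 0.23. None of these was called, nor was RET without KO replicate 1 (0.29). The median log2 fold change was 0.0023 over the development list and 0.044 over the induction list.

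Among the paralogues 1 of 34 was called higher (3.45% of all promoters) and 1 lower (0.995% of all), with 12 at an unadjusted p under 0.05 (20.3% of all) and a median log2 fold change of -0.031. ISL1, a LIM-homeodomain factor related to LHX1, rose from 55.7 and 45.5 CPM in WT to 62.3 and 63.9 CPM in KO, by 0.32 on the log2 scale (SE 0.070, edgeR adjusted p = 0.0014). Its difference was 0.18 without WT replicate 2 and 0.30 without KO replicate 2, with no call. PAX7, a paired-box factor of muscle and neural crest, fell by 0.62 on the log2 scale (SE 0.20, edgeR adjusted p = 0.0445), with 72 and 57 fragments in WT replicates 1 and 2 against 43 and 83 in the deeper KO libraries. It was not called without any 1 of the libraries, with values from -0.80 (without KO replicate 2) to -0.49 (without KO replicate 1). PAX7 and PAX2 were in the same abundance class, in which the median was -0.18.

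Of the 16 mature nephron genes 0 were called higher and 2 lower (0.995% of all promoters), with 3 at an unadjusted p under 0.05 (20.3% of all) and a median log2 fold change of -0.14. CUBN (cubilin, a partner of megalin) held 30 and 26 fragments in WT replicates 1 and 2 and 15 and 25 in KO, and fell by 1.06 on the log2 scale (SE 0.31, edgeR adjusted p = 0.0237). It too was not called without any 1 of the libraries, with values from -1.12 (without WT replicate 2) to -1.004 (without WT replicate 1). SLC34A1, a phosphate transporter, fell by 0.41 (SE 0.13, edgeR adjusted p = 0.0476), and was not called without WT replicate 1 (-0.23), KO replicate 1 (-0.50) or KO replicate 2 (-0.27). Among 10 neural or sympathoadrenal genes 1 was called lower (0.995% of all promoters). This was SOX10, a neural crest factor, which fell by 0.59 (SE 0.16, edgeR adjusted p = 0.0153). It was not called without WT replicate 1 (-0.51), WT replicate 2 (-0.67) or KO replicate 2 (-0.45).

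Of these 9 called promoters, ISL1 alone was called after offsets on abundance (0.25, adjusted p = 0.0342), and DESeq2 called 0 of them, as did edgeR with total count scaling. TBX18, PAX7 and SLC34A1 were not called by limma-trend, and SLC34A1 was called in 3 of its 11 alternatives. In edgeR 0 genes of the adrenal cortex, blood, liver and muscle lists were called, with 1, 0, 1 and 0 at an unadjusted p under 0.05, and 0 of the 15 ubiquitously used genes, with 2. Of the 391 olfactory receptor promoters 0 were called higher (3.45% of all promoters) and 2 lower (0.995% of all), with a median log2 fold change of -0.28.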

How the data were processed

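ATAC-seq libraries of 2 WT and 2 MORC2 KO HEK293T cultures were analysed from the promoter count table. Per the study's methods, reads were trimmed (Trim Galore) and mapped to CHM13 (bowtie2) by the authors, who kept proper pairs of high mapping quality and removed duplicates with Picard. The deposited values are raw counts of fragments per promoter, 1 row per NCBI Gene ID, without normalisation. The counter and the start used for each gene row are not given in the sources used here. The submitters' processing notes list featureCounts and Subread 2.0.6, which the study's methods name for RNA-seq. For ATAC-seq, those methods name csaw, which counted fragment midpoints in windows along the genome. Symbols came from a RefSeq table on GRCh38.p14 (28763 of 28775 IDs), used otherwise only for chromosome and gene order. The WT peak list, whose positions are on CHM13, was not used here.

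Rows were filtered with filterByExpr (27647 kept), scaled by TMM and tested with the legacy quasi-likelihood F-test of edgeR 4.0.16 in R 4.3.3, without covariates, two-sided, with Benjamini-Hochberg adjustment over all rows and a threshold of 0.05. Standard errors and 95% intervals were derived from the F statistics. Single values were not tested, since an exact permutation of 2 against 2 cannot give a p below 0.333. Alternatives covered scaling, filter, fit, DESeq2 1.42.0, limma 3.58.1, a replicate block, the threshold and leaving out each library. In simulated data 78.5% of 200 promoters changed by 0.6 and 96.0% of those changed by 1 (log2, mean count of at least 50) were recovered. These promoters were drawn at all levels above that count, and the simulation held no trend with abundance. The shares therefore do not apply to single members, least of all to PAX2, EYA1 and PAX8, whose counts lay near the limit. The members and lists were chosen with earlier results of these data known. Genes named besides the members were the called ones, up to 4 per list, the 2 highest and 2 lowest in WT of each list, and neighbours in gene order; the 3 promoters most like SIX2 were also named. A gene that this rule names is not reported here.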

Additional observations from a re-analysis of the deposited data

How the results depend on the processing

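None of the 8 kidney factors was called in any of the alternative fits, including DESeq2, limma-trend, thresholds of 0.1 and 0.01 and each library left out (lowest adjusted p 0.249). The number of members above the median WT promoter was 4 under each scaling, ranking and single library. Directions near 0 were not stable. With total count scaling, which moved the median of all promoters from -0.017 to 0.12, EYA1 had a log2 fold change of 0.12, SALL1 0.071 and PAX8-AS1 0.018. With offsets on abundance EYA1 had 0.15, PAX8 0.049 and PAX8-AS1 0.079. Leaving out each library gave ranges of -0.055 to 0.13 for LHX1, -0.11 to 0.066 for EYA1, -0.15 to 0.030 for SALL1, -0.087 to 0.16 for OSR1 and -0.040 to 0.17 for MIR4757; a group left with 1 library is assumed to vary like the other.

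The kidney development list had 1 call, and 0 with total count scaling, offsets on abundance, DESeq2, limma-trend and a threshold of 0.01. It had 3 without mitochondrial rows, 4 at a threshold of 0.1 and 0 to 4 with a library left out. The study, which tested windows summarised per promoter, reported far fewer genes than the counts of whole promoters gave here. Over all promoters there were 1229 calls (954 higher, 275 lower). There were 20 with total count scaling (19 higher, 1 lower), 387 with offsets on abundance (215 higher, 172 lower), 787 at a mean count of at least 50, 717 in limma-trend, 7 in DESeq2, 2249 at a threshold of 0.1, 355 at 0.01 and 41 to 1637 with a library left out (41 without KO replicate 2, 230 without WT replicate 2). With the replicate block there were 765; deviations of same-numbered libraries correlated at -0.00027, so a shared number marks no pair. Among the 9 called list genes the block lost RET and SLC34A1. The cause was not tested.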
